A study of Caenorhabditis elegans with 4 samples.

Results

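Gap junction genes were examined in neurons labeled by *Pacr-2*::*gfp*: the innexins *unc-7*, *unc-9*, *inx-3*, *inx-7*, *inx-10*, *inx-12*, *inx-13*, *inx-14* and *inx-19*, and the stomatin gene *unc-1*. The 10 genes were chosen by name, as innexins of neurons and of other tissues with their regulator, and each was found at 1 of the 42518 loci in the expression values. Levels are given as FPKM, fragments scaled to transcript length and to the mapped fragments of a library, so genes of different length can be compared.

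The values come from 2 wild-type libraries (n = 2) of the strain CZ631, which carries the integrated reporter *juIs14[Pacr-2::gfp]* in an otherwise wild-type background. The animals were young adults grown for 72 hours on food at 20°C, and GFP-positive cells were collected by FACS from pooled populations. The reporter labels ventral cord cholinergic motoneurons and some unidentified neurons of the head and tail, so the sorted cells are a mixture. The 2 samples of CZ5808, which carries *acr-2(n2420gf)* with the same reporter, were not analysed here, and no comparison between genotypes was made. The libraries are called library 1 and library 2. The labels do not say which replicate each one is, and they do not say whether the replicates came from separate cultures, so the spread between the 2 libraries may be technical.

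Gap junctions join the cytoplasm of neighbouring cells and let ions and small molecules pass, and between neurons they act as electrical synapses. In invertebrates they are built of innexins, proteins that span the membrane several times. In the motor circuit of *C. elegans*, UNC-7 in premotor interneurons and UNC-9 in motoneurons form junctions that couple these cells, and loss of either gene makes animals uncoordinated. UNC-1, a stomatin-like membrane protein, is required for UNC-9 junctions to conduct.

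The 3 genes of this motor circuit system were the highest of the 10, with *unc-1* above *unc-9* and *unc-9* above *unc-7* in each library. *unc-9* is also known from body-wall muscle, and the part of other cells in these levels was not tested. *unc-1* (WBGene00006741, chromosome X, 1057487 to 1062453, − strand, WBcel235) had 481 FPKM in library 1, with a Cufflinks 95% interval from 465 to 498. It had 489.6 FPKM in library 2, with an interval from 473 to 506. The 2 intervals overlapped, and the mean was 485 ± 5.81 FPKM (SD, n = 2). This mean exceeded that of 97.4% of the protein-coding loci. *unc-9* (WBGene00006749, chromosome X, 13201770 to 13216729, + strand) had 146 FPKM in library 1 and 228 FPKM in library 2. Its intervals ran from 142 to 151 and from 223 to 232, so they lay far apart, and the mean was 187 ± 57.4 FPKM (SD, n = 2). *unc-7* (WBGene00006747, chromosome X, 15120846 to 15147740, − strand) had 41.6 FPKM in library 1 and 57.0 FPKM in library 2, again with intervals that did not overlap. Its mean of 49.3 ± 10.9 FPKM (SD, n = 2) lay above 84.4% of the protein-coding loci.

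Within a library, the proportion between these genes can be read without any scaling between libraries. *unc-9* was 3.52-fold higher than *unc-7* in library 1 and 3.99-fold in library 2. *unc-1* was 3.29-fold higher than *unc-9* in library 1 and 2.15-fold in library 2. The proportion of the innexin pair therefore moved less between the libraries than that of *unc-1* to *unc-9*, where the intervals overlapped for *unc-1* and not for *unc-9*.

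**Figure D1:**
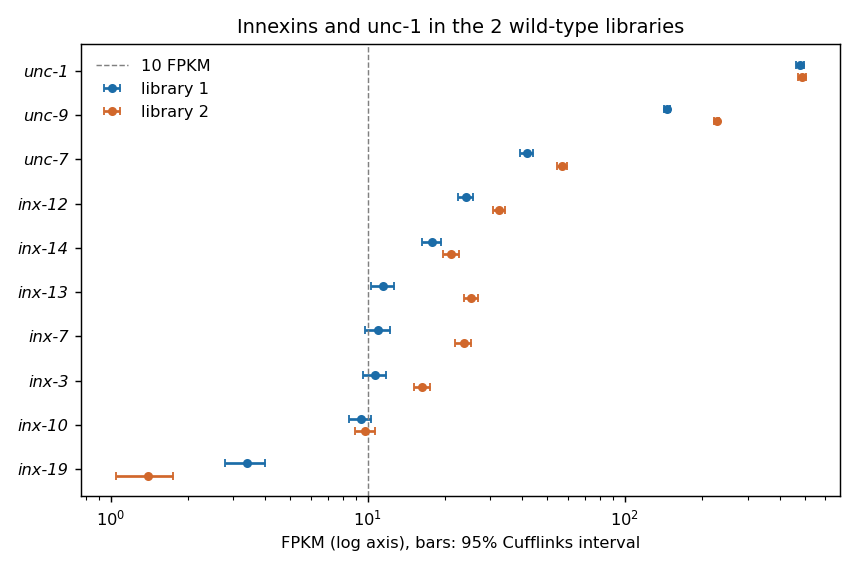
FPKM of the 9 innexins and *unc-1* on a log axis, with a point for each wild-type library and bars for the 95% Cufflinks interval. The dashed line marks 10 FPKM. *unc-1*, *unc-9* and *unc-7* stood above the other genes in both libraries, and *inx-10* and *inx-19* stayed under the line in both.

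A level over 10 FPKM in each of the libraries, the limit of the study's methods, counted a gene as expressed. Of the 10 genes, 8 passed, against 32.8% of the 18007 protein-coding loci. The genes were chosen by name with earlier results of these data known, so this count describes them and is not a test. In order of mean level, the ranges over the 2 libraries did not overlap from *unc-1* down through *unc-9*, *unc-7* and *inx-12* to *inx-14*. *inx-14* and *inx-13*, *inx-13* and *inx-7*, and *inx-7* and *inx-3* had ranges that overlapped. Within each library *inx-13* was above *inx-7*, and *inx-7* above *inx-3*. The intervals of these neighbours overlapped in library 1, and in library 2 only those of *inx-7* and *inx-3* lay apart. *inx-14* was above *inx-13* in library 1 (17.8 against 11.5 FPKM) and below it in library 2 (21.1 against 25.3 FPKM). *inx-10* and *inx-19* lay below the other 8 genes.

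What the loci cover bears on these levels. For each of the 10 genes, the span of the locus in the expression values equalled, to the base, the coding span of at least 1 transcript in the WBcel235 annotation, start and stop codon included. Untranslated regions therefore lay outside at the ends, and the FPKM values are per coding length. The longest coding length among the transcripts with that span was 870 bp for *unc-1*, 1161 bp for *unc-9* and 1569 bp for *unc-7*. Over all protein-coding loci, 89.2% had such a span. *unc-7* was the exception in what its locus left out. WBcel235 lists 11 transcripts for it, of which 6 have a coding span wider than the locus of 5753 bp, and all of them together cover 20525 bp. A span of that length cannot hold all the coding exons of the wider transcripts. The other 9 genes had no transcript with a wider coding span.

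The width of the Cufflinks interval gives the precision within a library. If the interval were counting error alone, taken as 2 SD of a Poisson count, it would correspond to 5012 fragments for *unc-9* in library 1 and 9191 in library 2. For *unc-1* it would correspond to 3309 and 3479 fragments, fewer than for *unc-9* although the FPKM of *unc-1* was higher. The interval of *unc-1* was thus wider than its level alone would give. The interval of *inx-19* corresponded to fewer fragments than that of any other gene of the 10, with 63.7 in library 2.

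*inx-12* and *inx-13* are neighbouring innexin genes on the − strand of chromosome I, 1529 bp apart, and both are needed for the excretory canal. *inx-12* (WBGene00002134, 3755488 to 3759039) had 24.1 FPKM in library 1 and 32.5 FPKM in library 2, with a mean of 28.3 ± 5.94 FPKM (SD, n = 2). *inx-13* (WBGene00002135, 3748523 to 3753958) had 11.5 FPKM in library 1 and 25.3 FPKM in library 2, with a mean of 18.4 ± 9.78 FPKM (SD, n = 2). Each gene was lower in library 1, with intervals that did not overlap. The proportion of *inx-12* to *inx-13* was 2.11 in library 1 and 1.29 in library 2, so the neighbours did not keep a common ratio. The 5 excretory canal markers were mixed. The aquaporin gene *aqp-8* was lower in library 1, as *inx-12* and *inx-13* were, with 26.0 FPKM there and 31.6 FPKM in library 2 and intervals that did not overlap. The other 4 were higher in library 1. Of these, *exc-4* had 22.4 FPKM in library 1 and 13.3 FPKM in library 2, and *pgp-12* and *glt-3* were under 1.5 FPKM in both. The list summed to 864 FPKM in library 1 and 186 FPKM in library 2, most of it from *exc-9*, at 813 FPKM in library 1 and 140 FPKM in library 2. The 8 hypodermal markers were all lower in library 1, summing to 2271 FPKM there and to 2758 FPKM in library 2, with *bli-1* listed at 0 in library 1. Nearly all of that sum was the collagen gene *col-19*, at 2214 FPKM in library 1 and 2652 FPKM in library 2. The part of other cells in the levels of *inx-12* and *inx-13* was not tested. In a bulk sample, fewer cells of a type and less RNA per cell cannot be told apart.

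*inx-14* is known for junctions between the germline and the somatic sheath of the gonad. The gene (WBGene00002136, chromosome I, 7350309 to 7352235, − strand) had 17.8 FPKM in library 1 and 21.1 FPKM in library 2. The intervals, from 16.2 to 19.3 and from 19.6 to 22.6, came close without meeting, and the mean was 19.4 ± 2.37 FPKM (SD, n = 2). All 8 germline markers passed 10 FPKM in both libraries, summing to 942 FPKM in library 1 and 970.3 FPKM in library 2. Of the 3 markers of the gonadal sheath and distal tip cell, only *ceh-18* passed, and that list summed to 39.7 and 55.3 FPKM. Their part in the level of *inx-14* was not tested.

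*inx-3* is an innexin of many tissues that is required in the embryo. It (WBGene00002125, chromosome X, 5996156 to 5998243, + strand) had 10.7 FPKM in library 1 and 16.3 FPKM in library 2, with a mean of 13.5 ± 3.96 FPKM (SD, n = 2). *inx-7* (WBGene00002129, chromosome IV, 5943981 to 5946638, − strand) had 10.98 FPKM in library 1 and 23.6 FPKM in library 2, with a mean of 17.3 ± 8.91 FPKM (SD, n = 2). Both genes were close to the limit in library 1 and clearly over it in library 2, and their lower bounds in library 1, 9.63 FPKM for *inx-3* and 9.78 FPKM for *inx-7*, fell under it. With the lower bound in place of the FPKM, 6 of the 10 genes passed, and the share of all protein-coding loci was not computed at this setting.

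*inx-10* is one of the innexins that couple body-wall muscle cells. It (WBGene00002132, chromosome V, 9204661 to 9207477, − strand) had 9.41 FPKM in library 1 and 9.78 FPKM in library 2. The intervals, from 8.47 to 10.3 and from 8.90 to 10.6, overlapped and both held the limit of 10, so the gene was not separated from it. Its mean of 9.59 ± 0.262 FPKM (SD, n = 2) had a smaller SD relative to its level than any other of the genes except *unc-1*. The 8 body-wall muscle markers summed to 7058 FPKM in library 1 and 6863 FPKM in library 2, with 6 of 8 past the limit. The largest part was the troponin C gene *pat-10*, at 3693 and 3957 FPKM. Those that did not pass were *myo-3*, at 8.43 and 13.6 FPKM, and *unc-22*, at 1.48 and 2.55 FPKM. The part of muscle in the level of *inx-10*, and in those of *unc-9* and *unc-1*, was not tested. The 3′ end of *inx-10* overlaps that of the protease gene *asp-2* on the opposite strand by 74 bp of exon, none of it coding in *inx-10*, and *asp-2* had 184 and 134 FPKM in library 1 and library 2. For none of the 10 genes did an annotated exon of another gene overlap the coding exons.

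*inx-19* sets the left-right difference of the AWC olfactory neurons in the embryo, and was the lowest of the 10. It (WBGene00002141, chromosome I, 2451898 to 2464618, − strand) had 3.39 FPKM in library 1 and 1.40 FPKM in library 2, with lower bounds of 2.79 and 1.05. It was the only gene of the 10 that was higher in library 1 with intervals apart, by 2.42-fold. The mean was 2.39 ± 1.41 FPKM (SD, n = 2), below the median of 3.67 FPKM over the protein-coding loci.

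The libraries were of 1 condition, so the difference between them is spread between replicates. The FPKM was lower in library 1 for 9 of the 10 genes. The median locus past 10 FPKM in both was itself lower there, at 0.921-fold with 1 added to each FPKM. Relative to that median, 7 of the 10 genes were lower in library 1. Intervals did not overlap and library 1 was lower for 7 genes, *unc-9*, *unc-7*, *inx-12*, *inx-14*, *inx-13*, *inx-7* and *inx-3*, against 44.9% of the 10974 protein-coding loci above 0 in both. In the other direction it was 1 gene, *inx-19*, against 31.2% of the same loci, and *unc-1* and *inx-10* had intervals that overlapped. Intervals that did not meet were thus frequent among all loci of these libraries.

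The log2 ratio of library 1 over library 2, on the log2(FPKM + 1) scale, had a median of −0.12 over the loci past the limit, and ratios are given relative to that median. The median over the 10 genes was −0.31. It ranged from −0.96 for *inx-13* and −0.92 for *inx-7* to 0.99 for *inx-19*. *unc-9* had −0.51, *inx-3* had −0.45, *unc-7* had −0.33, *inx-12* had −0.30 and *inx-14* had −0.12. *unc-1* and *inx-10* had 0.09 and 0.07, and these were −0.02 and −0.05 without the centring, so their side is set by the scaling. For *inx-19*, *inx-13* and *inx-7* the difference was larger in size than that of 86.8%, 85.9% and 84.5% of the loci past the limit. For *inx-10* and *unc-1* this was 8.89% and 12.8%.

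**Figure D2:**
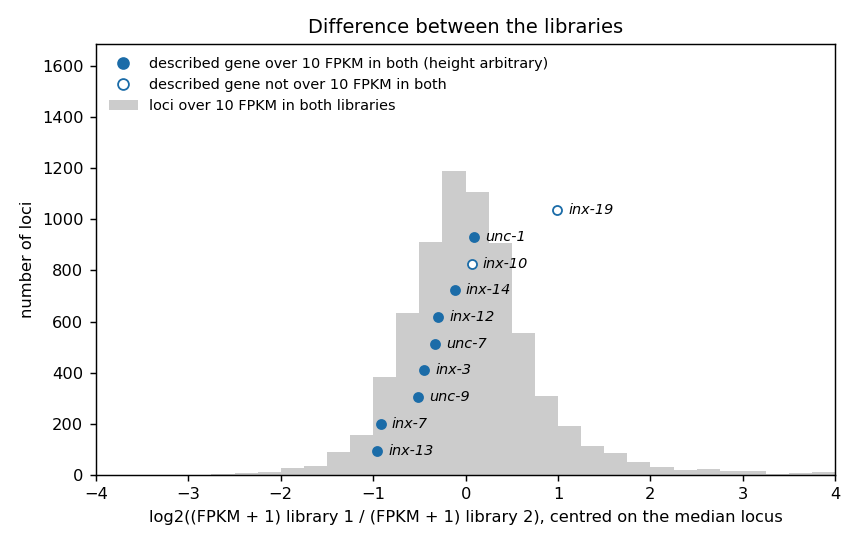
Histogram of the log2 ratio of library 1 over library 2, on the log2(FPKM + 1) scale and centred on the median, for the 6885 loci past 10 FPKM in both libraries, with values beyond 4 placed in the end bins. The points mark the 9 innexins and *unc-1* at an arbitrary height. All 10 lie between −0.96 and 0.99, and 7 of them lie on the left of 0.

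Of the proportions computed within each library, those closest between the libraries were picked out after they were seen. Their genes were all lower in library 1 with intervals apart, so this describes the values and shows no common control. *unc-9* was 13.7-fold higher than *inx-3* in library 1 and 13.97-fold in library 2. *unc-7* was 1.72-fold and 1.75-fold higher than *inx-12*. The proportion of *unc-9* to *inx-19* moved most of those computed, with 43.2-fold in library 1 and 163-fold in library 2.

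The 25 innexin genes of *C. elegans* were looked up together, with *inx-4* under its name *che-7*. Of these, 11 passed 10 FPKM in both libraries, or 44.0%, against 32.8% of the protein-coding loci. The 9 innexins above gave 7 of the 11. The other 4 were *inx-8*, *inx-1*, *inx-9* and *inx-22*. The family summed to 715 FPKM in library 1 and 912 FPKM in library 2, of which *unc-9* and *unc-7* together made up 26.3% and 31.2%, with a mean of 28.8%. All 9 together made up 38.6% in library 1 and 45.5% in library 2.

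The highest innexin was *inx-8*, at 206 FPKM in library 1 and 282 FPKM in library 2, with a mean of 244 ± 54.3 FPKM (SD, n = 2). The ranges of *inx-8* and *unc-9* over the libraries overlapped, but *inx-8* was the higher within each library. *inx-8* and its neighbour *inx-9* act with *inx-14*, *inx-21* and *inx-22* in the junctions of the gonad. *inx-9* had 57.4 FPKM in library 1 and 58.6 FPKM in library 2, and *inx-22* had 32.4 and 22.8 FPKM, while *inx-21* had 2.58 and 6.49 FPKM. These 5 genes, grouped after their values were seen, took 44.2% of the family sum in library 1 and 42.9% in library 2. Of the markers given above, all 8 of the germline passed the limit, and of the sheath and distal tip cell only *ceh-18* did. The part of gonadal cells in the levels of these innexins was not tested.

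*inx-1* had 93.2 FPKM in library 1 and 85.1 FPKM in library 2. Its locus of 11551 bp was wider than its coding transcripts together, 4765 bp, so these values may not be per coding length. The locus of *che-7*, 4291 bp, was narrower than its coding transcripts together, 7361 bp. With *unc-9*, *inx-10*, *inx-11*, *inx-16* and *inx-18*, *inx-1* belongs to the innexins known to couple body-wall muscle cells. Of these 6, only *unc-9* and *inx-1* passed the limit. *inx-11* had 5.91 and 6.82 FPKM, *inx-16*, also known from the intestine, had 9.54 and 4.68 FPKM, and *inx-18* had 1.54 and 1.32 FPKM. *che-7* and *inx-5* each passed in 1 library, *che-7* with 12.5 FPKM in library 1 against 3.87 FPKM in library 2, and *inx-5* with 8.68 FPKM against 10.1 FPKM. The pharyngeal innexins *eat-5* and *inx-6* were the lowest with *inx-20*. *eat-5* and *inx-20* were listed at 0 in library 1 and had 0.257 and 0.489 FPKM in library 2, and *inx-6* had 0.0577 and 0.332 FPKM. The remaining genes *inx-2*, *inx-15* and *inx-17* had means between 1.5 and 6.11 FPKM.

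**Figure D3:**
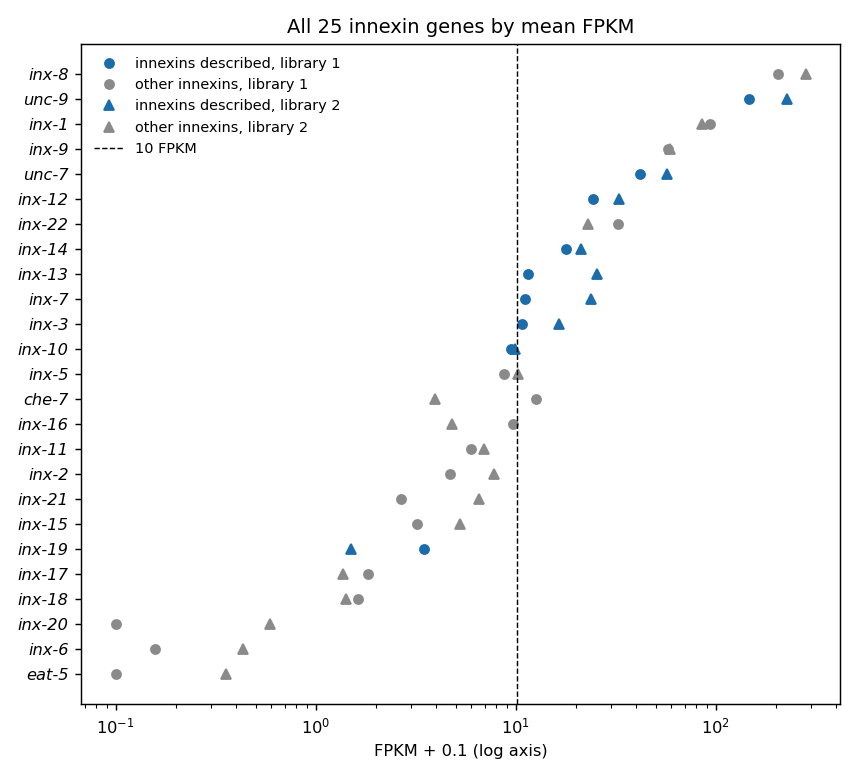
FPKM of the 25 innexin genes, with 0.1 added and on a log axis, ordered by mean. Circles are library 1 and triangles library 2, blue marks the 9 innexins described first and grey the other 16, and the dashed line is 10 FPKM. *inx-8*, *unc-9*, *inx-1*, *inx-9* and *unc-7* led the family, and *inx-20*, *inx-6* and *eat-5* were under 1 FPKM in both libraries.

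*unc-1* was also the highest of the 9 stomatin genes, of which 8 passed 10 FPKM in both libraries. *sto-6* followed with 234.7 ± 26.7 FPKM and *sto-4* with 107 ± 28.8 FPKM (SD, n = 2 for each). *mec-2*, the stomatin of the touch receptor channel, had 69.8 FPKM in library 1 and 52.4 FPKM in library 2, and *unc-1* was 6.90-fold and 9.34-fold higher than it. *unc-24*, which acts with *unc-1* in the response to volatile anaesthetics, had 11.4 and 25.1 FPKM. Some loci here were narrower than the coding transcripts together, which limits the comparison with *unc-1*. They were those of *mec-2* (14525 against 22740 bp), *sto-5* (2805 against 8366 bp) and *unc-24* (1937 against 2066 bp). *sto-5*, *sto-1* and *sto-2* had means of 43.9 ± 0.357, 14.5 ± 4.11 and 11.99 ± 2.06 FPKM (SD, n = 2 for each), and *sto-3* was listed at 0 in both libraries. The stomatin list summed to 978 FPKM in library 1 and 976 FPKM in library 2, of which *unc-1* was 481 and 489.6 FPKM. These close sums hide differences in both directions, with intervals that did not overlap. *sto-4*, *mec-2* and *sto-1* were higher in library 1, and *sto-6*, *sto-2* and *unc-24* were lower. Of 2 further genes tied to gap junctions, the ZO-1 homolog *zoo-1* had 60.02 FPKM in library 1 and 84.5 FPKM in library 2. *nlr-1*, a Caspr homolog that promotes gap junction formation, had 22.1 and 44.8 FPKM. Both were lower in library 1.

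The motor circuit genes were compared with 124 genes of the lists, which cover neurons and other tissues. The genes nearest to each in log2(FPKM + 1) over the 2 libraries were taken. Nearest to *unc-9* were the cholinergic genes *cha-1*, which makes acetylcholine, at 173 and 286 FPKM, and *cho-1*, which takes up choline, at 193 and 203 FPKM. *unc-1* was nearest to *unc-17*, the vesicular acetylcholine transporter, at 395 and 573 FPKM, and to the eggshell gene *cpg-2*, at 483 and 372 FPKM. *unc-7* was nearest to the germline helicase gene *glh-1*, at 45.4 and 61.8 FPKM, and to the acetylcholine receptor subunit *acr-12*, at 40.2 and 50.2 FPKM. With 2 libraries this likeness is of level alone.

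The labels call the sorted cells cholinergic neurons. All 4 core cholinergic and all 16 pan-neuronal genes passed 10 FPKM in both libraries, and so did 9 of 10 genes of ventral cord cholinergic motoneurons. The FPKM was lower in library 1 for 4 core cholinergic, 14 pan-neuronal and 9 motoneuron genes. Relative to the median locus past the limit, this held for 2, 12 and 9 of them. The markers of premotor command interneurons, in which *unc-7* is known to act, did not pass in any of 4 cases. *nmr-1*, *nmr-2* and *glr-1* stayed between 1.58 and 3.01 FPKM, and *unc-42* had 33.3 FPKM in library 1 and 5.35 FPKM in library 2. *unc-42* was thus past the limit in library 1 only. *unc-7* had 41.6 FPKM there and 57.0 FPKM in library 2. The part of command interneurons in the level of *unc-7* was not tested. The other lists were not absent. The GABAergic genes were all 5 lower in library 1, with a sum of 270.0 FPKM there and of 659 FPKM in library 2. Most of that sum was *unc-25*, at 226 and 536 FPKM, and 3 of the 5 passed the limit. The intestinal genes summed to 5191 and 2652 FPKM, mostly from *mtl-2*, at 1767 and 1004 FPKM, and *asp-1*, at 1726 and 741 FPKM. Among them *elt-2* alone was lower in library 1, at 1.68 against 5.36 FPKM, and *ges-1* had 1.46 and 0.863 FPKM. Of the pharyngeal markers 2 of 5 passed, and of the 5 glial genes 0 passed, with *ptr-10* listed at 0 in library 1.

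**Figure D4:**
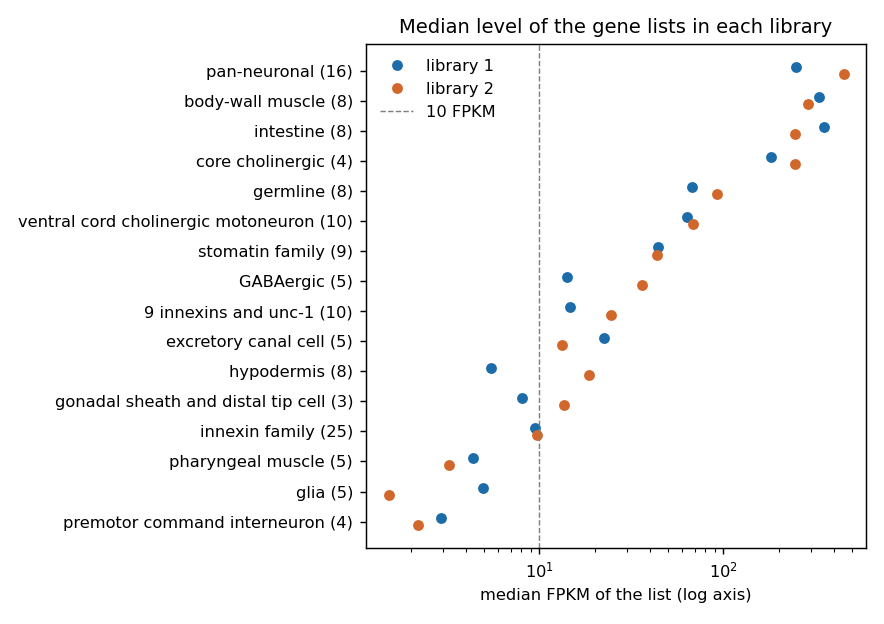
Median FPKM of each gene list in library 1 and library 2, on a log axis, with the number of genes in parentheses and a dashed line at 10 FPKM. The 9 innexins and *unc-1* had a median of 14.6 FPKM in library 1 and 24.4 FPKM in library 2. The premotor command interneuron, glial, pharyngeal and whole innexin lists lay under the line in both libraries.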

How the data were processed

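The authors sorted GFP-positive cells, prepared libraries with the Illumina TruSeq kit, aligned single-end reads by TopHat on the Galaxy platform, and obtained gene values from Cufflinks. The values deposited are FPKM for each locus of each library with the bounds of a 95% interval. At the genes described the interval is symmetric about the FPKM unless it reaches 0, so the lower bound was computed from the FPKM and the upper bound, and the 2 columns of lower bounds were not used. The submitters' processing notes name the genome build ce10, and the annotation, program versions and any scaling between libraries are not given in the sources used here. The 2 tables were joined on start sites and locus, and 11 gene names, turned into spreadsheet dates in library 1, were taken from library 2. Gene coordinates and transcripts are from WBcel235 (Ensembl release 115) and only the lengths of spans were compared with the loci of the tables.

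FPKM values per library, mean and SD (n = 2), log2(FPKM + 1) ratios centred on the median locus past 10 FPKM in both libraries, and the overlap of Cufflinks intervals were computed. No test between groups was possible with 1 condition. The genes described and the lists were chosen with earlier results of these data known. Named were all 10 genes, the rest of the innexin, stomatin and gap junction lists, genes of the other lists where a sentence needed them, a gene whose exons overlapped, and the 2 nearest genes for *unc-7*, *unc-9* and *unc-1*. The innexins were also grouped by known role after their values were seen.

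The FPKM above 0 covered 13107 loci in library 1 and 16792 in library 2. No read counts were used, but the intervals hold the relative depth. At 151 loci where they gave a whole number of fragments under 50 (within 0.02) in both libraries, 1 fragment was worth 1.22 times the FPKM in library 1 of that in library 2, so library 2 was the deeper by that factor. The ratio, centring and interval steps were tested on simulated data. Alternatives were other limits, the lower bound, TPM, upper-quartile scaling, other pseudocounts and centrings, and each library left out. Python 3.11.15, numpy 2.4.6, pandas 2.3.3 and matplotlib 3.10.9 were used.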

Additional observations from a re-analysis of the deposited data

How the results depend on the processing

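Of the 10 genes, 8 passed 10 FPKM in both libraries. The count was 4 at a limit of 20 FPKM and 4 on the TPM scale, where each library is rescaled to the same sum and values become smaller by construction. It was 10 at 1 FPKM, 9 at 5 FPKM, 6 with the lower bound and from 8 to 8 with 1 library left out. Of the 25 innexins, 11 passed, and 22 did at 1 FPKM, 7 at 20 FPKM and 7 on the TPM scale, with 14 at 5 FPKM, 9 with the lower bound and from 12 to 12 with 1 library left out. The share of all protein-coding loci was computed for 10 FPKM in both libraries only. The counts at the other settings thus have no background share beside them.

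The mean level moved by more than its SD on the TPM scale for 7 of the 10 genes and for 0 after upper-quartile scaling. No symbol among the 10 had several loci, so a sum over loci was not run. The log2 ratio moved by more than its Cufflinks error for 3 genes without centring, for 3 with a pseudocount of 5 and for 1, *inx-19*, with a pseudocount of 0.1, and no gene whose intervals lay apart changed side. The median ratio of the 10 genes, −0.31, ranged from −0.39 to −0.28 with other pseudocounts or only the genes past the limit. Without centring it was −0.43. The share of *unc-7* and *unc-9* in the innexin sum, 28.8%, was 29.1% with the lower bound and ranged from 26.3% to 31.2% with 1 library left out.

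No paired analysis was possible because both libraries belong to the wild type, which leaves nothing to pair. Genes at the limit, such as *inx-10*, cannot be placed on either side of it at this precision, and Cufflinks intervals cover error within a library only.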
